A study of Mus musculus with 12 samples.

Results

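Of 44976 merged H3K4me3 regions in mouse cKit+ bone marrow cells, 5582 carried H3K4me3 in all 4 H3K4me3 libraries, spanned under 5000 bp and overlapped no H3K27ac peak in any of 4 H3K27ac libraries. They are called H3K4me3 regions without H3K27ac here, and they were chosen by the presence and width of H3K4me3 peaks and the absence of H3K27ac peaks. H3K4me3 was in all 4 libraries at 24580 regions, of which 23898 were under 5000 bp. Beside the 5582, 4145 of those had H3K27ac in 1 to 3 libraries and 14171 had it in all 4. The width and strength of H3K4me3 and the lack of H3K27ac are therefore compared between these classes below without a test. H3K4me1, gene positions and promoter sequence were not used in the choice.

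The chromatin immunoprecipitation study compared C57BL/6 mice of the wild type (WT) with C57BL/6 mice of genotype Phf6R274X Tg (Tg), which carry a truncating form of Phf6, a gene mutated in leukaemia. Each mark (H3K27ac, H3K4me1, H3K4me3) has 2 WT and 2 Tg libraries, 12 in all, from cells sorted for the receptor cKit. The promoter that drives the transgene, the cells it acts in and the age of the mice are not given in the labels. The design counts 2 mice a genotype, but no label ties a library to a mouse, so p-values measure only the spread between libraries, which may be technical. Inside the 4 H3K4me3 lists each peak's name gives the other genotype than the label does, while in the other 8 lists the genotypes of name and label match. Every genotype given below for H3K4me3 is therefore the label's. In both genotypes, the names carry the numbers 2 and 3 for H3K27ac replicates 1 and 2, and 4 and 3 for H3K4me1 replicates 1 and 2. Replicate numbers below are the labels', and the same number in different marks may not mean the same sample.

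The peak lists hold no read counts, so depth is unknown, and the lack of a peak is not the lack of a mark. The H3K4me3 lists cover 38.3 to 43.6 Mb and the H3K27ac lists 28.5 to 45.7 Mb. The H3K4me1 lists cover 66.3 Mb (WT) and 70.7 Mb (Tg) in replicate 1 and 119.7 Mb (WT) and 117 Mb (Tg) in replicate 2, so they differ more by replicate number than by genotype. H3K4me3 peaks at Xist, the RNA that silences an X chromosome in female cells, numbered 0 in both replicate 1 libraries, 6 in WT replicate 2 and 3 in Tg replicate 2. Peaks on chromosome Y numbered 37 to 41 in the 4 H3K4me3 libraries, those with Xist peaks included. Each H3K27ac and H3K4me1 library had at least 1 Xist peak. The sorted cells were checked at blood genes: Kit, the receptor used for the sort, lay in an H3K4me3 region of 5900 bp with H3K27ac in all 4 libraries, as did Ptprc (4575 bp) and Spi1 (3902 bp). Cd34, a gene of progenitor cells, and Irf8, a transcription factor of monocytes, lay in regions of 2767 and 5405 bp with no H3K27ac peak. Cd3e and Alb, which mark T cells and hepatocytes, had no H3K4me3 region present in all 4 libraries. Of 23 T-lymphoid genes, however, 6 had such a region without H3K27ac. In the same list, 2 had one with H3K27ac in all 4 libraries or of at least 5000 bp.

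H3K4me3 is set down at the starts of genes, above all at promoters rich in CpG dinucleotides, where proteins that read unmethylated CpG recruit the methyltransferases. H3K27ac is added by p300 and CBP and accompanies active promoters and enhancers. A promoter with H3K4me3 and little acetylation is typical of genes that a cell keeps silent or ready, such as developmental regulators, which in stem cells often also carry the Polycomb mark H3K27me3. H3K4me1 flanks active promoters and covers enhancers. H3K27me3 is not analysed here.

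The promoter sequences inside the strongest of these regions are shown for their CpG content. Each is the 250 bases before a gene start, 5′ to 3′ on the gene's strand, taken from RefSeq's GRCm38.p6 promoter table, and the capitals mark CpG. Strength is the lowest, over the 4 H3K4me3 libraries, of the percentile of a region's best peak by −log10 q within its list. The first 3 belong to the strongest regions at developmental genes with an entry in that table. Dll1 encodes a Notch ligand, Ntn4 a netrin and Gdf11 a ligand of the TGF-beta family. Dll1 is on the minus strand at chr17:15375824-15376073, Ntn4 on the plus strand at chr10:93640799-93641048 and Gdf11 on the minus strand at chr10:128891719-128891968.
Dll1: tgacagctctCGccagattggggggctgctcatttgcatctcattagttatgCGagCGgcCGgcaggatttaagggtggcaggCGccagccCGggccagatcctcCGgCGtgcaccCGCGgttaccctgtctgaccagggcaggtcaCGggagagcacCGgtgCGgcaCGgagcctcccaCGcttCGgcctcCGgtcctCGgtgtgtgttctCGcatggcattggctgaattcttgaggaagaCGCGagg
Ntn4: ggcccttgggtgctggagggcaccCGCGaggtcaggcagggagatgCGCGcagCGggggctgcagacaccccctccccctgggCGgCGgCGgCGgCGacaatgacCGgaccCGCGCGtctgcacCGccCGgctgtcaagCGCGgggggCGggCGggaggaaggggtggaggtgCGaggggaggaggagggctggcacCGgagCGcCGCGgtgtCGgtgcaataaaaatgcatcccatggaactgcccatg
Gdf11: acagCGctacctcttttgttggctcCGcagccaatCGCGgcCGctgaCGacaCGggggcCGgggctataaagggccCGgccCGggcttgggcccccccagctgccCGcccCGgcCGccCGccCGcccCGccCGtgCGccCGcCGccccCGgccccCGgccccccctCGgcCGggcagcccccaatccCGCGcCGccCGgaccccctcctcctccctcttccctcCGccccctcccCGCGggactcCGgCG

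The next pair are the strongest regions at other protein-coding genes. Traf3ip1 encodes a component of cilia, and Tlcd3a a multipass membrane protein. Both are on the plus strand, at chr1:91494418-91494667 and chr11:76201842-76202091.
Traf3ip1: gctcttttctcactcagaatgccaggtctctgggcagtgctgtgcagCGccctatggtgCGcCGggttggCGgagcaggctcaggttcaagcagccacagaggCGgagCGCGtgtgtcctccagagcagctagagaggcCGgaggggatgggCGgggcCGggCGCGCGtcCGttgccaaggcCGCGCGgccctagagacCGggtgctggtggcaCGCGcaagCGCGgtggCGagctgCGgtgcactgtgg
Tlcd3a: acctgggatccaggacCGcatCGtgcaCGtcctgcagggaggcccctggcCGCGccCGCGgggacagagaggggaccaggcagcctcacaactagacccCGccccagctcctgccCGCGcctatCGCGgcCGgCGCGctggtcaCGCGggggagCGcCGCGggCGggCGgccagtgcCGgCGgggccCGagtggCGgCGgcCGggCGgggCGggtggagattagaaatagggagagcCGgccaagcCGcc

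These 5 sequences hold 21, 26, 33, 24 and 32 CpG in the order printed. A contrast is given by 3 blood genes whose regions also lacked H3K27ac, chosen after their values were seen. Cd34 encodes a surface protein of stem and progenitor cells (plus strand, chr1:194938571-194938820). Rhd encodes a blood group protein of red cells (plus strand, chr4:134864286-134864535). Gata1 encodes the transcription factor that drives red cell and platelet formation (minus strand, chrX:7967911-7968160).
Cd34: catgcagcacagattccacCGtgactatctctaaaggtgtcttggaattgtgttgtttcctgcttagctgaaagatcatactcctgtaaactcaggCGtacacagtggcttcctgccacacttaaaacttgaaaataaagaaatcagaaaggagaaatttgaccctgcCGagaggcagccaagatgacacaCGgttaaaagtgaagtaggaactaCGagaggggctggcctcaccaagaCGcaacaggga
Rhd: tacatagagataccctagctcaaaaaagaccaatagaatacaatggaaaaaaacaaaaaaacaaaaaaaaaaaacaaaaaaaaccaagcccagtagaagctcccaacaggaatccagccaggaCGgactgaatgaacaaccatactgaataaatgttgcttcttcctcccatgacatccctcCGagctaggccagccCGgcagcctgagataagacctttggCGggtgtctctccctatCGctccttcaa
Gata1: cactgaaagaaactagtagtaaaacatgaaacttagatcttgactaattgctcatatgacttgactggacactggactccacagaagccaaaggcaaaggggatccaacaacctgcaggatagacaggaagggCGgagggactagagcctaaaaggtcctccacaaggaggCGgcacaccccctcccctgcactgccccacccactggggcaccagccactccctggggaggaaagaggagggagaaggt

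Those 3 hold 6, 5 and 2 CpG. Over 300 bases (250 before and 50 after the start), the 1942 protein-coding starts inside or within 1 kb of a region without H3K27ac had a median of 21 CpG (quartiles 14 and 30). At 8568 starts with H3K27ac in all 4 libraries the median was 22, at 8945 starts with no constant H3K4me3 region it was 3, and over all 21263 starts in the table it was 13. The ratio of observed to expected CpG had a median of 0.709 without H3K27ac and 0.804 with it. A ratio of at least 0.6 was found at 67.4% and 79.6% of the starts. Only 77 starts (3.96%) without H3K27ac had 5 or fewer CpG, against 32.3% of all starts. In CpG number the promoters without H3K27ac were thus close to the acetylated ones. They were far from those with no constant H3K4me3 region, meaning none present in all 4 libraries. The list medians were 31.5 CpG at 4 starts of Hox genes, 26 at 30 starts of other homeobox genes, 28 at 49 starts of ion channel genes and 14 at 36 starts of zinc finger genes. At 5 starts of erythroid genes the median was 4, and 4 of those 5 had 5 or fewer CpG.

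Most of the regions lay at the ends of protein-coding genes or inside them. An annotated end of a protein-coding gene was at most 1 kb away from 2476 of the 5582 (44.4%, exact binomial 95% interval 43.0% to 45.7%, which covers counting error only). A further 468 (8.38%) lay within 1 kb of an end of a non-coding gene only, and 1410 (25.3%) inside a protein-coding gene farther from its ends. The other 1228 (22.0%) lay in none of these positions and are called outside. Pseudogenes and gene segments were left out of the non-coding genes, and the bodies of non-coding genes were not counted. A region called outside can therefore still lie in or near such a gene. Of the 14171 regions with H3K27ac in all 4 libraries, 55.0% lay near a protein-coding end and 15.2% outside. Of the 4145 with H3K27ac in 1 to 3 libraries, 27.6% lay near a protein-coding end and 27.9% outside. The share near gene ends was thus lowest where H3K27ac was present in some libraries only, and the regions without H3K27ac stood between. Where the table gives the strand, 1926 regions without H3K27ac lay within 1 kb of a listed protein-coding start and 163 near the far end only. The median distance to a protein-coding end was 2001.5 bp, and the upper quartile 16603 bp. Regions near a protein-coding end were wider (median 1164 bp) than those inside genes (813 bp) or outside (674 bp), and stronger (median strength 51.6 against 35.7 and 34.8).

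**Figure D1:**
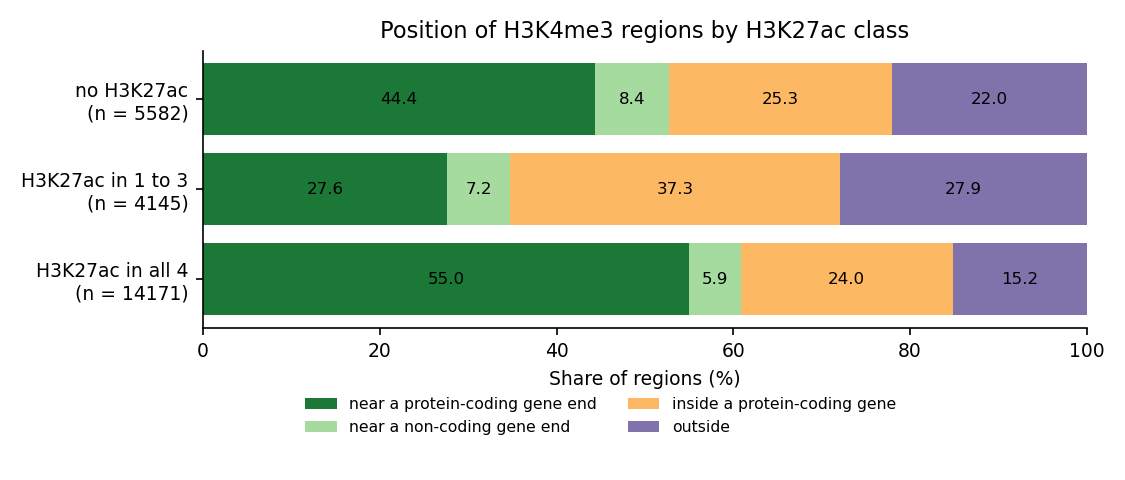
Share of H3K4me3 regions (x axis, %) in 4 positions, for regions with H3K27ac in no, 1 to 3 or all 4 libraries (bars, with the number of regions). Regions without H3K27ac lay near a protein-coding gene end in 44.4%, against 55.0% with H3K27ac in all 4 libraries.

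In H3K4me3 itself the regions were narrow and of middling strength. Their median merged width was 916.5 bp, against 973 bp with H3K27ac in 1 to 3 libraries and 1923 bp with it in all 4. Only 6.72% reached 2000 bp, against 47.3%. The median length of H3K4me3 peak per region was 825 bp in WT replicate 1, 722 bp in WT replicate 2, 612 bp in Tg replicate 1 and 751 bp in Tg replicate 2. The authors' fold enrichment at the best peak had medians of 10.97, 7.97, 7.07 and 8.33 in that order. Within the list of Tg replicate 1, the median percentile of these regions was 45.8, against 54.4 to 59.1 in the other 3 lists, while acetylated regions had 77.3 to 79.8 in all 4. The library labelled Tg replicate 1 thus stands apart at these regions.

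The regions with the values nearest the limits of the choice can be named. The widest were at Lipg (4961 bp), Efna5 (4712 bp) and Esam (4655 bp). Just past the width limit, with no H3K27ac peak either, were the regions at Ache (5064 bp), the enzyme that breaks down acetylcholine, Irf8 (5405 bp), a transcription factor of monocytes and dendritic cells, and Mycn (5956 bp). H3K27ac in a single library kept out 1194 regions: 483 through WT replicate 1, 85 through WT replicate 2, 158 through Tg replicate 1 and 468 through Tg replicate 2. The nearest H3K27ac peak of any library was a median of 23461 bp away from the 5582 regions. It was within 1 kb of 219 regions and farther than 10 kb from 4031 (72.2%).

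The 12 strongest regions at protein-coding starts were at Traf3ip1, Tlcd3a, Spdya, Rbm11, Zfp251, Zdhhc23, Rabl2, Rtn4r, Pard6b, Cbfa2t3, Snx25 and Tmem184c. Traf3ip1 (chr1:91494204-91495645), whose promoter is printed above, had H3K4me3 over 1330 and 1439 bp in WT libraries, and 1230 and 1295 bp in Tg. Its H3K4me1 covered 498 and 439 bp in WT libraries, and 0 and 798 bp in Tg. The H3K4me3 lengths of the 4 libraries were close, and H3K4me1 was missing in 1 of them. Cbfa2t3 (chr8:122676829-122679434), a corepressor of blood cells, differed from the other 11 in being covered by H3K4me1 over nearly its whole 2606 bp, with 2380 and 2606 bp in WT libraries, and 2386 and 2461 bp in Tg. The strongest region over 1 kb from every annotated gene was chr12:105962318-105963792. It had H3K4me3 over 1299 and 1228 bp in WT libraries, and 1263 and 1302 bp in Tg, and H3K4me1 only in the replicate 2 libraries (367 bp in WT, 550 bp in Tg).

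The regions were set against lists of protein-coding genes. Of 21887 protein-coding genes, 2558 (11.7%) had a region without H3K27ac within 1 kb of a start, and 9692 (44.3%) had one with H3K27ac in all 4 libraries or of at least 5000 bp. Both shares are the background for the lists that follow, which are described by their counts with no test. Acetylated here means H3K27ac in all 4 libraries. Regions under 5000 bp with H3K27ac in 1 to 3 libraries count in neither share, and they lay at 1227 genes. A gene can have more than 1 region. Of the 2558 genes, 160 also had one with H3K27ac in 1 or more libraries or of at least 5000 bp. In a gene without a listed start, either end was used.

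Among developmental transcription factors, 132 of 314 genes (42.0%) had a region without H3K27ac and 11 had an acetylated or wide one. The Hox genes, which set position along the body axis and of which the Hoxa genes also act in blood stem cells, had such a region at 12 of 39 and an acetylated or wide one at 2. A region with H3K27ac in 1 to 3 libraries lay at 6 Hox genes. The 12 were Hoxa6, Hoxa10, Hoxa11, Hoxa13, Hoxb1, Hoxb5, Hoxb6, Hoxb7, Hoxc6, Hoxc9, Hoxd8 and Hoxd13. Hoxb5 (chr11:96303222-96305392) had H3K4me3 over 2171 and 1985 bp in WT libraries, and 808 and 2013 bp in Tg. Hoxa10 (chr6:52231740-52235046) had it over 3031 and 2501 bp in WT libraries, and 1117 and 3053 bp in Tg. In both, Tg replicate 1 was far below the other 3 libraries, which lay close together. The region at Hoxb1 (chr11:96365868-96367059) was 1709 bp from the nearest H3K27ac peak and that at Hoxd8 (chr2:74704824-74705261) 94549 bp.

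Of 123 other homeobox genes, 51 had a region without H3K27ac and 2 an acetylated or wide one. They include Gbx2, Shox2, Dlx1, Dlx4, Pax2, Pax3, Otx1 and Nkx6-1, regulators of the nervous system, limbs and pancreas. Gbx2 (chr1:89929774-89931769) had H3K4me3 over 1996 and 1929 bp in WT libraries, and 1484 and 1932 bp in Tg, again lowest in Tg replicate 1. Of 152 other developmental transcription factors, which include the Fox, Sox, Tbx, Gli and bHLH families among others, 69 had one and 7 an acetylated or wide region. Foxj1 (chr11:116334666-116336141), the regulator of motile cilia, was the strongest, with H3K4me3 over 1476 and 1050 bp in WT libraries, and 1032 and 1002 bp in Tg. Hey1 (chr3:8666064-8668363), a target of Notch signalling, had 2200 and 2202 bp in WT libraries, and 1798 and 2035 bp in Tg.

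Developmental ligands and receptors had the highest share of the lists, with 89 of 187 genes (47.6%), against 13 with an acetylated or wide region. The Notch ligand Dll1 (chr17:15374488-15376980) had H3K4me3 over 2492 and 2391 bp in WT libraries, and 2034 and 2396 bp in Tg. The Wnt receptor gene Fzd3 (chr14:65261622-65263083) had 1458 and 1380 bp in WT libraries, and 1366 and 1390 bp in Tg. Ligands of the Wnt family (Wnt2, Wnt2b, Wnt5a, Wnt5b, Wnt7a, Wnt9a, Wnt9b, Wnt10a, Wnt11), fibroblast growth factors, ephrins and their Eph receptors are among the 89.

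Of 102 synapse and neuron genes, 44 had a region without H3K27ac and 2 an acetylated or wide one. Shank1 (chr7:44359361-44360817), a scaffold of synapses, had H3K4me3 over 1453 and 1271 bp in WT libraries, and 1361 and 1342 bp in Tg. Of 268 ion channel and neurotransmitter receptor genes, 74 had one and 16 an acetylated or wide region. Grin2d (chr7:45865798-45867175), a glutamate receptor subunit, had H3K4me3 over 1164 and 1247 bp in WT libraries, and 1217 and 1237 bp in Tg. Of 108 cadherins and protocadherins, 18 had one, among them 9 genes of the gamma and beta protocadherin clusters. Olfactory and vomeronasal receptors, at 2 of 1478 genes, had hardly any H3K4me3 of either kind (1469 genes had none within 1 kb).

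Housekeeping lists stood at the other end. None of 84 ribosomal protein genes had a region without H3K27ac and 80 had an acetylated or wide one. Of 47 cell cycle and replication genes, 46 had an acetylated or wide region, and the exception was Ccnd1, cyclin D1. Ccnd1 (chr7:144937589-144940767) had H3K4me3 over 3095 and 2810 bp in WT libraries, and 2644 and 2719 bp in Tg, and its nearest H3K27ac peak was 21683 bp away. Of 11 inhibitors of the cell cycle, 6 had an acetylated or wide region and 4 had one without H3K27ac: Cdkn2a, Cdkn2b, Cdkn1c and Trp73. Cdkn2a (chr4:89294166-89295864), which encodes p16 and p19Arf, had H3K4me3 over 1645 and 1620 bp in WT libraries, and 1671 and 1502 bp in Tg, with the nearest H3K27ac peak 156190 bp away. Of 469 zinc finger genes, 47 had a region without H3K27ac, near the share among all genes, and 313 had an acetylated or wide one.

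Imprinted genes, expressed from a single parental copy, had a region without H3K27ac at 15 of 47, against 10 with an acetylated or wide one. Mkrn3 (chr7:62419402-62420393) had H3K4me3 over 992 and 915 bp in WT libraries, and 772 and 692 bp in Tg, and no H3K4me1 in any library. A region shared by Peg3 and Usp29 (chr7:6729080-6730281) had H3K4me3 over 1202 and 1038 bp in WT libraries, and 372 and 1045 bp in Tg and no H3K4me1 either. Of 69 germline genes, 9 had a region without H3K27ac (Stag3, Tdrd5, Pld6, Sox30, Boll, Cpeb1, Dppa3, Piwil4 and Rec8) and 10 an acetylated or wide one.

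**Figure D2:**
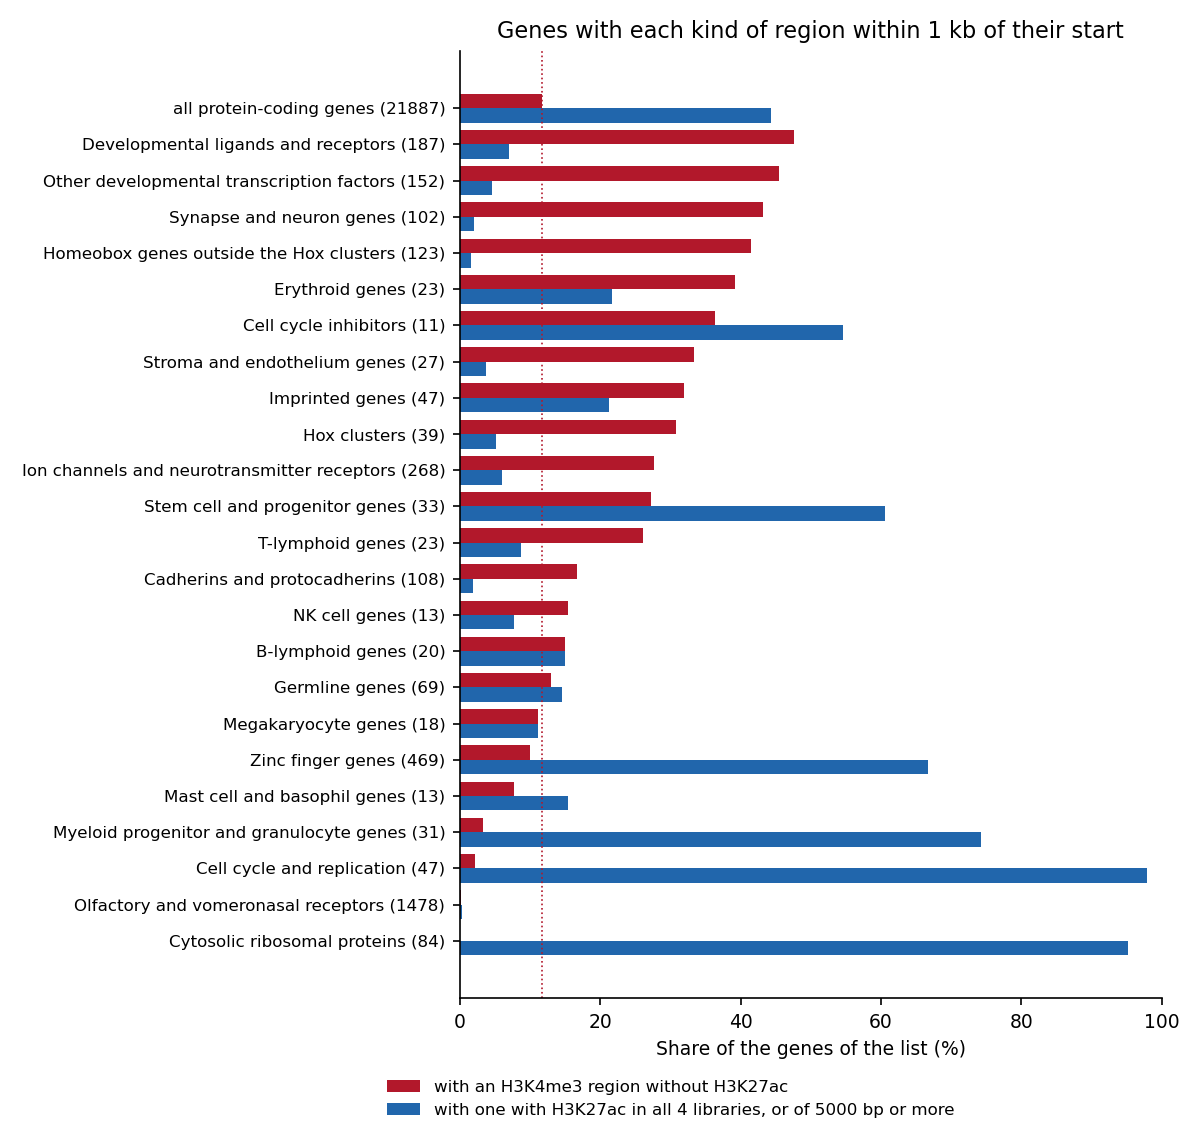
Share of the genes of each list (x axis, %, number of genes in brackets) with an H3K4me3 region without H3K27ac (red) or with one acetylated in all 4 libraries or of at least 5000 bp (blue) within 1 kb. The dotted line is the 11.7% of all protein-coding genes. Developmental and neuron lists lie to its right, as do the cell cycle inhibitors (36.4%). The ribosomal protein list and the cell cycle and replication list lie to its left.

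Blood genes fell on both sides. Of 33 stem and progenitor genes, 20 had an acetylated or wide region and 9 had one without H3K27ac: Cd34, Erg, Esam, Gfi1b, Hmga2, Mecom, Prdm16, Procr and Slamf1. Of these 9, 2 also had another region, with H3K27ac in 1 or more libraries or of at least 5000 bp. A region with H3K27ac in 1 to 3 libraries lay at 3 of the 33. Cd34 (chr1:194938459-194941225) had H3K4me3 over 2767 and 1418 bp in WT libraries, and 1737 and 1807 bp in Tg. Hmga2 (chr10:120474318-120477966), a chromatin protein of fetal stem cells, had 3649 and 3233 bp in WT libraries, and 2117 and 3200 bp in Tg. Mecom (chr3:30011532-30013416), a zinc finger factor of stem cell renewal, had 1735 and 1648 bp in WT libraries, and 980 and 1858 bp in Tg. Of 31 myeloid progenitor and granulocyte genes, 23 had an acetylated or wide region. Phf6 itself (chrX:52911670-52914226) had H3K27ac in all 4 libraries and is not among the regions.

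Of 23 erythroid genes, 9 had a region without H3K27ac, 7 had one with H3K27ac in 1 to 3 libraries and 5 an acetylated or wide one. The 9 include the globin genes Hba-a1 and Hba-a2, the anion exchanger Slc4a1, the membrane skeleton genes Ank1 and Epb42, the carbonic anhydrase Car1, Rhd and Gata1, with 11 regions in all. Hba-a1 and Hba-a2 are nearly identical in sequence, so the placing of their reads is uncertain. Hba-a1 (chr11:32282892-32285011) had H3K4me3 over 798 and 1249 bp in WT libraries, and 2120 and 1215 bp in Tg, and no H3K4me1. Slc4a1 (chr11:102363741-102365242) had 186 and 966 bp in WT libraries, and 1426 and 1462 bp in Tg. Epb42 (chr2:121035024-121036918) had 245 and 1619 bp in WT libraries, and 1734 and 1557 bp in Tg. Gata1 (chrX:7964769-7968580) had 3219 and 3504 bp in WT libraries, and 3373 and 3182 bp in Tg. Car1 (chr3:14805205-14808443) had 2657 and 3064 bp in WT libraries, and 3121 and 1965 bp in Tg. The wider of a pair of regions at Ank1 (chr8:23149172-23150318) had 1134 and 987 bp in WT libraries, and 816 and 1040 bp in Tg. The regions thus did not all have the same order of libraries. WT replicate 1 was the lowest library at 7 of the 11 erythroid regions and Tg replicate 1 the highest at 6. Over all 5582 regions the order was the other way, with Tg replicate 1 lowest at 3046 and WT replicate 1 highest at 2861.

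Summed over the 11 erythroid regions, H3K4me3 covered 11611 bp in WT replicate 1, 16173 bp in WT replicate 2, 17949 bp in Tg replicate 1 and 15095 bp in Tg replicate 2. Over the 9 stem and progenitor regions it covered 23341, 18581, 13985 and 21047 bp in the same order, and over the 12 Hox regions 13514, 11179, 7682 and 13511 bp. The genotypes overlapped in all 3 sums. The erythroid sum was lowest in WT replicate 1 and highest in Tg replicate 1, and the stem cell and Hox sums were the reverse. In a sorted bulk sample a different share of erythroid cells and a different amount of the mark per cell cannot be told apart.

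**Figure D3:**
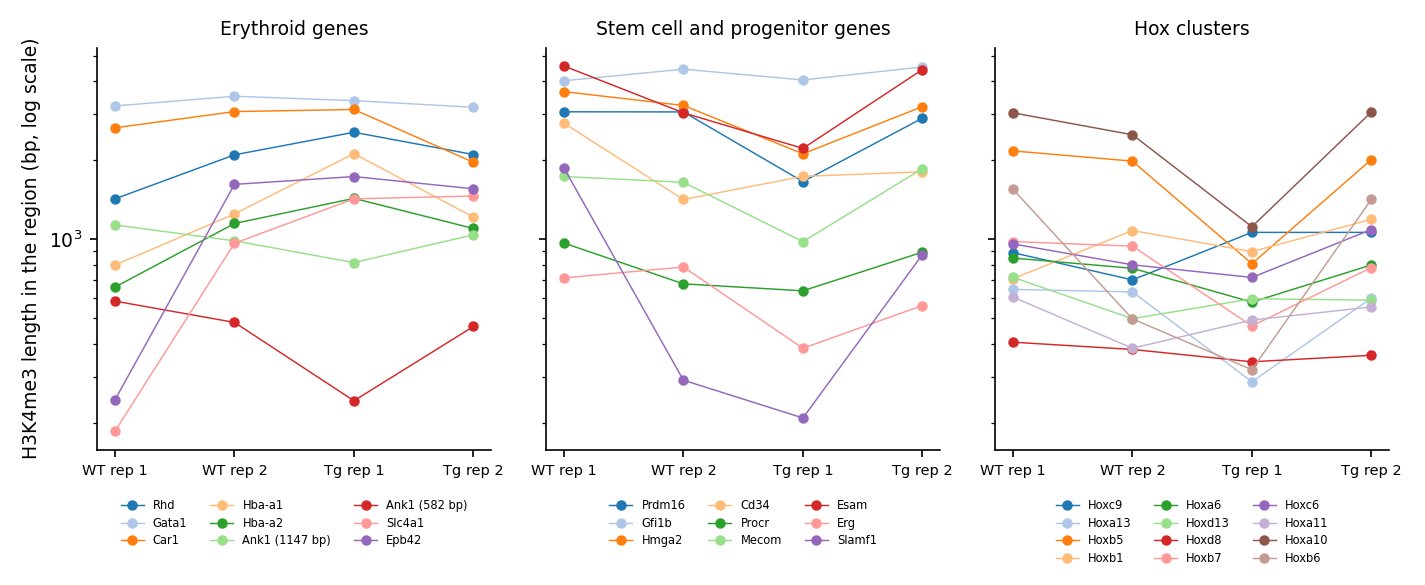
H3K4me3 peak length (y axis, bp, log scale) in 9 of the 11 erythroid regions and in all the stem cell and Hox regions without H3K27ac, in the 4 libraries by label; a line joins the values of 1 region. Slc4a1 and Epb42 were lowest in WT replicate 1 (186 and 245 bp), and Hoxb5 and Esam were lowest in Tg replicate 1 (808 and 2219 bp).

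Genes of the lymphoid, stromal and endothelial lists were also found, and their shares are set against the 11.7% of all protein-coding genes. T-lymphoid genes had 6 of 23 (26.1%: Bcl11b, Cd4, Gata3, Lat, Lef1, Tcf7) and B-lymphoid genes 3 of 20 (15%: Blnk, Cd72, Ebf1). Gata3 (chr2:9876445-9880160), the T cell factor, had H3K4me3 over 3716 and 3371 bp in WT libraries, and 2659 and 3244 bp in Tg, with the nearest H3K27ac peak 66558 bp away. Stroma and endothelium genes had 9 of 27 (33.3%: Col1a1, Col1a2, Cxcl12, Flt1, Fn1, Kdr, Pdgfrb, Sp7, Tek). In that list 1 gene had an acetylated or wide region and 4 had one with H3K27ac in 1 to 3 libraries. Megakaryocyte genes had 2 of 18 (11.1%), NK cell genes 2 of 13 (15.4%) and mast cell and basophil genes 1 of 13 (7.69%). These shares and that of the B-lymphoid genes lay near the share of all genes. Summed H3K4me3 covered 9001 to 10789 bp over the 6 T-lymphoid regions, 5536 to 7767 bp over the 4 B-lymphoid regions and 8298 to 12749 bp over the 9 stroma and endothelium regions in the 4 libraries. Whether other cell types in the sort contributed was not tested.

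Most of the regions stood alone, and 1 array stood out. With a gap of up to 10000 bp joining neighbours, 4454 of the 5582 had no other within reach, and 17 clusters held 4 or 5 regions. Those clusters include Gata3, Ebf1, Foxc1, Pou4f1, Lbx1, Meis2 and Hoxd13. The largest held 53 regions on chromosome 8 at the 5S ribosomal RNA gene array. Between chr8:123538630-123622684, 50 regions lay within 1 kb of rRNA genes, 48 of which are annotated in that span at 119 to 121 bp each. Their starts were spaced by a median of 1688 bp and their median width was 955.5 bp. H3K4me1 was present at 47 and 50 of the 50 in WT and at 49 and 50 in Tg, and the nearest H3K27ac peak was 31370 to 80482 bp from each. These copies are nearly identical in sequence, so reads from 1 copy may be placed on another, and the 50 regions are not independent.

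H3K4me1 was present at fewer of the regions without H3K27ac than of the acetylated ones, in every library. It overlapped 54.0% and 79.6% of the 5582 in WT replicates 1 and 2 and 52.4% and 78.5% in Tg replicates 1 and 2. At the 14171 regions with H3K27ac in all 4 libraries the shares were 92.9% and 97.4% in WT and 90.6% and 97.3% in Tg. The difference was −28.4 percentage points (SD 11.7 over 4 libraries) and had the same sign in all 4, with p = 0.125 by a two-sided exact sign-flip permutation test, the smallest that 4 libraries allow. Wide regions overlap a peak more readily: from 1000 bp to under 2000 bp, a band chosen after the data were seen, the difference was −18.3 points. H3K4me1 covered a mean of 29.5% and 57.2% of each region's length in WT and 28.0% and 54.4% in Tg. The acetylated regions had 49.7% and 66.6% in WT and 45.9% and 64.1% in Tg, a difference of −14.3 points (SD 5.56, exact p = 0.125 by the same test). At regions within 1 kb of a protein-coding start, also chosen after the data were seen, the latter difference was −4.97 points (exact p = 0.375). It was below 0 in both replicate 1 libraries (−12.8 in WT, −7.78 in Tg) and near 0 in both replicate 2 libraries (−0.0583 and 0.779).

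H3K4me1 also lay differently within and around the regions. At acetylated regions it dipped at the centre and was higher on both sides. At the centre it covered 32.6% and 45.1% of them in WT and 29.4% and 42.0% in Tg, and at 1 kb to the right 47.2% and 69.1% in WT and 44.9% and 67.5% in Tg. At regions without H3K27ac it was highest at or near the centre, with 33.1% and 61.6% in WT and 31.5% and 58.8% in Tg. At 1 kb to the right it covered only 7.18% and 17.0% of them in WT and 7.40% and 15.4% in Tg. In the 1 kb flanks on each side, H3K4me1 covered a mean of 154 and 339 bp in WT libraries, and 155 and 317 bp in Tg, of 2000 bp, against 613 and 1048 bp in WT libraries, and 622 and 1029 bp in Tg at acetylated regions. The centres of the regions without H3K27ac were thus covered as often as or more often than those of the acetylated ones, and their flanks less in each library. Widths differ between the classes, so 1 kb from the centre lies inside more of the acetylated regions. Regions with H3K27ac in 1 to 3 libraries (median width 973 bp) were covered at the centre in 45.9% and 67.7% in WT and 44.5% and 64.3% in Tg. At 1 kb to the right the shares were 21.8% and 41.2% in WT and 24.3% and 41.7% in Tg. A centre covered more than the sites 1 kb away was thus not particular to regions without H3K27ac.

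**Figure D4:**
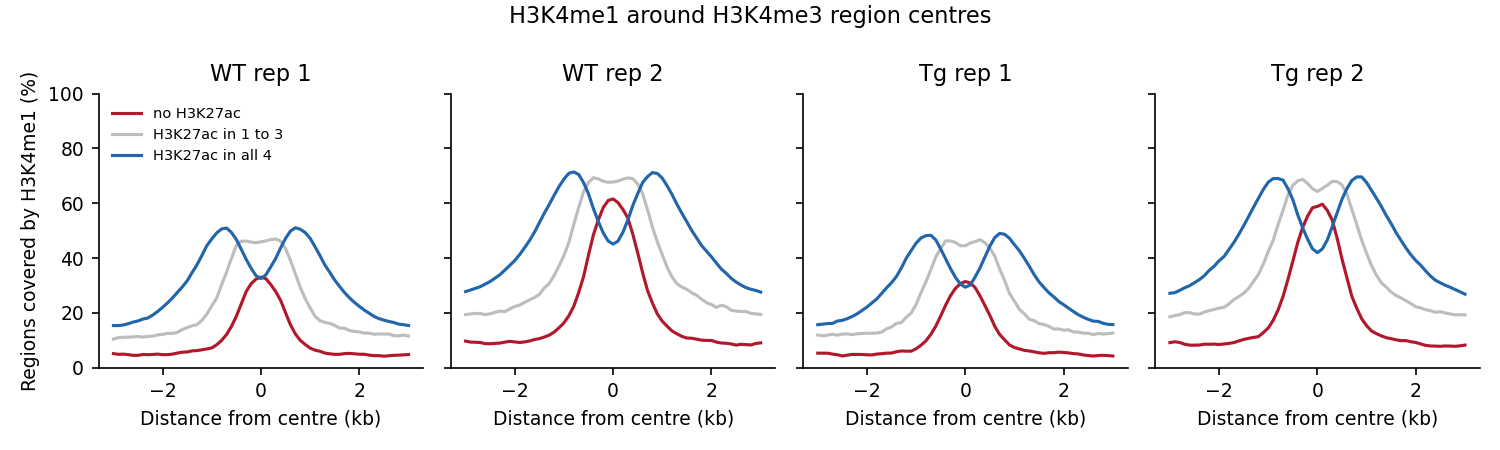
Share of regions covered by an H3K4me1 peak (y axis, %) at each distance from the region's centre (x axis, kb) in the 4 H3K4me1 libraries, by H3K27ac class. Regions without H3K27ac (red) have a single peak near the centre, 61.6% in WT replicate 2, where regions acetylated in all 4 libraries (blue) have a dip, 45.1%.

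Regions differed in how many libraries showed H3K4me1. It was in all 4 at 2157 (38.6%) and in none at 704 (12.6%). At acetylated regions those shares were 87.3% and 1.60%. The 704 were narrower (median 693 bp against 1066 bp), weaker (median strength 32.8 against 49.2) and farther from H3K27ac (median 67456 bp against 12967 bp) than the 2157. More of them lay outside, as defined above (32.4% against 17.2%), and fewer near a protein-coding end (35.5% against 46.2%).

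The gene lists differed in this too. None of the 12 Hox regions and none of the 57 other homeobox regions lacked H3K4me1 in every library, and 7 and 23 had it in all 4. Of 76 regions at further developmental factors, 45 had it in all 4 and 3 (Sox3, Tcf15 and Twist2) in none. Of 11 erythroid regions, 1 (at Ank1) had it in all 4 and 5 in none. Of 48 zinc finger regions, 11 had it in all 4 and 15 in none, and of 19 cadherin and protocadherin regions 5 and 9. The 9 stem and progenitor regions had it in all 4 at 6 and in none at 0. Of 47 synapse and neuron regions, 13 had it in all 4 and 6 in none, and of 95 regions of developmental ligands and receptors 47 and 9. These counts are a description, and the lists were not tested against each other or against the 38.6% of all regions with H3K4me1 in all 4 libraries.

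Chromosome X held 176 of the regions (3.15%, against 2.42% of acetylated regions), and H3K4me1 was scarce there. It overlapped 9.66% and 26.1% of the 176 in WT and 7.39% and 24.4% in Tg. On autosomes it overlapped 55.5% and 81.4% in WT and 53.9% and 80.3% in Tg, so the X was lower in each of the 4 libraries. More X regions lay within 1 kb of a protein-coding start, or of either end of a gene without a listed start (69.9% against 45.3%), and at those starts alone the shares were 7.32% and 23.6% in WT and 5.69% and 22.8% in Tg on the X and 57.5% and 85.7% in WT and 56.5% and 84.9% in Tg on autosomes. The X was also lower at acetylated regions, with 50.4% and 85.1% in WT and 51.9% and 81.6% in Tg, so this is not particular to regions without H3K27ac. H3K4me3 covered a median of 937 and 810.5 bp in WT libraries, and 671 and 875 bp in Tg of the X regions, against 819 and 719 bp in WT libraries, and 611 and 745 bp in Tg on autosomes. This look at chromosome X was chosen after the values were seen, and the part of X copy number or inactivation in it was not tested.

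**Figure D5:**
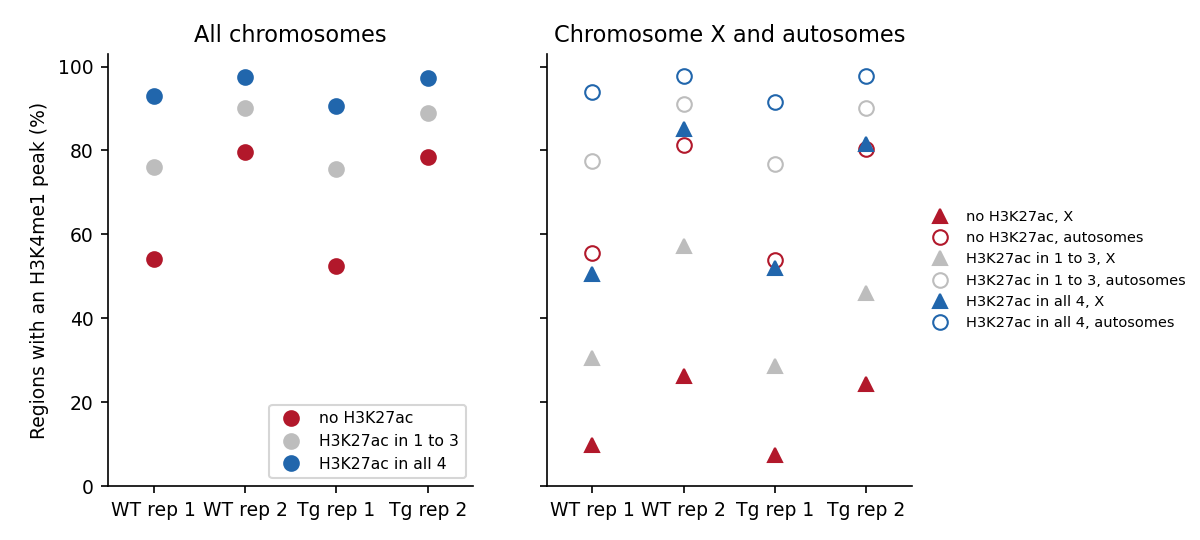
Share of H3K4me3 regions overlapped by an H3K4me1 peak (y axis, %) in each H3K4me1 library, by H3K27ac class (colours), over all chromosomes (left) and split into X (triangles) and autosomes (open circles, right). Regions without H3K27ac are lowest in each library, and those on the X lie at 7.39% to 26.1%.

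No difference between Tg and WT was found in the share with H3K4me1. The share was 66.8% ± 18.1 (SD, n = 2) in WT and 65.5% ± 18.5 (SD, n = 2) in Tg, a difference of −1.32 points (two-sided exact permutation p = 0.667; 2 against 2 libraries cannot go below 0.333). The replicates of a genotype differed by far more, and within a replicate number the difference was −1.58 points in replicate 1 and −1.06 points in replicate 2. H3K4me1 was in both WT and neither Tg library at 87 regions (1.56%) and in both Tg and neither WT library at 58 (1.04%). Those shares were 0.603% and 0.434% with H3K27ac in 1 to 3 libraries, and 0.169% and 0.0988% with H3K27ac in all 4. H3K4me1 was in both replicate 2 and neither replicate 1 library at 667 regions without H3K27ac (11.9%), and the reverse at 7 (0.125%). At some regions named above the libraries separated by genotype, in either direction. Those given here were picked after their values were seen. An exact permutation p cannot go below 0.333 with 2 against 2 libraries, so this order alone does not show a change by genotype. Cd34 had H3K4me1 over 544 and 587 bp in WT libraries, and 920 and 1345 bp in Tg. Its difference from WT to Tg, with 1 kb on each side, was 0.85 (SE 0.22) on the log2 scale of bp covered plus 500 bp, with an adjusted p of 0.837 in limma. Pdgfrb had 239 and 349 bp in WT libraries, and 917 and 1414 bp in Tg, a difference of 1.36 (SE 0.21, adjusted p = 0.837 in limma). Hoxc6 had 245 and 853 bp in WT libraries and no H3K4me1 peak in Tg, a difference of −0.79 (SE 0.29, adjusted p = 0.896 in limma).

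Region by region, neither mark changed by genotype past the test. In limma, on the length of H3K4me1 within each region and 1 kb on each side, 0 of 22060 regions tested (0%) passed an adjusted p of 0.05, and so 0 of the 4435 regions without H3K27ac that passed the filter on low values. An unadjusted p under 0.05 was reached by 5.30% of all regions tested and by 394 (8.88%) of the 4435. The lowest adjusted p was 0.837. The median change from WT to Tg was 0.03 on the log2 scale over the 4435 and 0.01 over all 22060.

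In limma on H3K4me3 length, 0 of 23898 regions (0%) passed, hence 0 of the 5582, and the lowest adjusted p was 0.886. These regions were chosen to carry H3K4me3 in all 4 libraries, so a region gained or lost with a genotype could not enter the fit. An unadjusted p under 0.05 was reached by 5.34% of all and by 367 (6.57%) of the 5582. The median change by label from WT to Tg was −0.07 on the log2 scale over the 5582 and −0.00333 over all 23898, with 3856 regions lower in Tg and 1726 higher. Without the library labelled Tg replicate 1, the median over the 5582 was −0.00242, with 2835 lower and 2747 higher. Among erythroid regions the difference by label was 0.94 (SE 0.41) at Slc4a1, 0.78 (SE 0.56) at Epb42, −0.04 (SE 0.10) at Gata1, −0.17 (SE 0.21) at Car1, and −0.26 (SE 0.15) and −0.12 (SE 0.11) at Ank1. It was 0.51 (SE 0.29) at Hba-a1, 0.37 (SE 0.25) at Hba-a2 and 0.33 (SE 0.21) at Rhd. Among Hox regions it ran from −0.50 (SE 0.33) at Hoxb5 to 0.28 (SE 0.07) at Hoxc9, and it was 0.02 (SE 0.15) at Hoxc6. The adjusted p of these regions in limma was 0.901 to 0.989.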

How the data were processed

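ChIP-seq peaks of H3K27ac, H3K4me1 and H3K4me3 were analysed in 4 libraries per mark. The submitters' processing notes name the build mm10 and, in no stated order or role, MACS2, Bowtie2, deepTools, FastQC, SAMtools and Trim Galore. Versions, settings and control libraries are not given in the sources used here. The authors deposited 1 narrowPeak list per library, which gives each peak a score, a ratio (fold enrichment) and both its p-value and its q-value as −log10. These depend on depth and were used only to rank peaks within a list or to set a stricter threshold. Presence of a peak can also move with depth, which is unknown.

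Overlapping H3K4me3 peaks of the 4 lists were merged, and at least 1 bp of overlap counted as presence. Coordinates are 1-based. Genes and starts came from RefSeq tables of GRCm38.p6 (the assembly of mm10), with 21887 protein-coding genes, 17492 of them with listed starts (none on chromosome 18). These tables give no exons, so regions inside genes are not divided into exons and introns. In total 23 gene lists were matched, and Ventx had no match. Genotypes were compared in limma 3.58.1 (R 4.3.3) on log2 of the covered length plus 500 bp, quantile normalized, with a shared spread over the 4 libraries of a mark and Benjamini-Hochberg adjustment at 0.05. The H3K4me1 fit kept regions with a value in at least 2 libraries. The scripts were tested on simulated data. Shares were compared by exact permutation tests. Named are the 12 strongest regions at protein-coding starts, up to 4 per list (not all are printed), the 5 strongest away from genes (1 is printed), the widest 3, the 3 just past the width limit, and Kit, Cd34 and Phf6. Other names are members of the lists, or were chosen after their values were seen, and some items are not reported here. The regions and lists were chosen with earlier results of these data known. Alternatives were other peak thresholds, widths, distances, scalings, added lengths, a replicate block and leaving out each library.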

Additional observations from a re-analysis of the deposited data

How the results depend on the processing

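The number of regions without H3K27ac ran from 4331 to 7016 over 14 alternatives, each within 1.5 times of 5582, and the number at developmental transcription factor genes from 108 to 198 around 145, the highest without H3K4me3 Tg replicate 1. The share near a protein-coding gene end (44.4%) was 49.2% with H3K4me3 peaks of −log10 q of at least 5, 42.1% with such H3K27ac peaks only, 42.1% for widths under 2000 bp, 50% within 2 kb and 59.4% within 5 kb, and 41.1% to 44.1% with 1 library left out. The difference in the share with H3K4me1 between regions without H3K27ac and acetylated ones stayed below 0 over 10 alternatives. It was −40.3 to −13.8 points, and −31.9 to −24.9 with 1 library left out. The difference in covered length stayed below 0 over 9 alternatives. It was −29.3 points where the 1 kb flanks alone replaced the region, and −19.0 to −4.97 in the others, with −15.9 to −12.3 when 1 library was left out. The Tg to WT difference in the share with H3K4me1 was −14.4 to 11.7 points with 1 library left out, turning positive without WT replicate 2 (11.5) or Tg replicate 1 (11.7), since each replicate 2 library has more H3K4me1. In limma, the number of regions called stayed at 0 in 11 alternatives for H3K4me1 and 9 for H3K4me3. With the replicate block it was 0 for both marks, with 1473 and 1190 regions at an unadjusted p under 0.05 against 1170 and 1276 without it. The labels do not say that a number marks a shared animal or day, and same-numbered libraries' deviations correlated at 0.21 for H3K4me1 and −0.06 for H3K4me3. The median change of H3K4me1 over these regions turned from 0.03 to −0.03 with no normalization, to −0.04 when scaled to equal covered length and to −0.01 without Tg replicate 1. Without Tg replicate 2, the median change of H3K4me3 was −0.12 over these regions and −0.00445 over all regions, against −0.07 and −0.00333 with every library. Without WT replicate 2, the median change of H3K4me1 was 0.00737 over these regions and −0.0230 over all regions tested. The limits to a band of widths and to gene starts, and the omission of the 5S array, were chosen after seeing the data. Read depth, unknown here, limits what the lack of a peak can show.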
